A study of Mus musculus with 14 samples.

Results

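The proteasome genes of mouse male germ cells were described in RNA sequencing libraries of sorted spermatogonia (Spg) and spermatocytes (Spc) with and without the DNA methyltransferase DNMT3C. The genes were taken by name: every gene whose symbol begins with Psma, Psmb, Psmc, Psmd, Psme, Psmf or Psmg followed by a digit. This gave 54 genes in each of the 2 count tables, of 32667 genes in spermatogonia and 36888 in spermatocytes. They comprise 8 alpha and 7 constitutive beta subunits of the 20S core, 4 alternative catalytic beta subunits, 6 ATPases and 11 other subunits of the 19S particle, 3 chaperones of 19S assembly and 4 of 20S assembly, 5 activators, 1 inhibitor and 4 pseudogenes. The name rule also takes in Psmc3ip, which encodes HOP2, a factor of meiotic recombination and not part of the proteasome. It is described on its own below, and is counted among the members in every count and median over all of them.

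Spermatogonia came from mice at postnatal day 14, of the genotype Dnmt3CKO/KO (KO, 3 libraries) or wild-type (WT, 3 libraries), and were sorted as live cells positive for EpCAM and negative for beta-2 microglobulin. Spermatocytes came from mice older than 20 days of the same genotypes (4 KO and 4 WT libraries) and were sorted on their DNA content. The study's methods give a C57Bl6/J background and the collection of littermates, without saying which libraries share a litter. By the study's account not all meiotic stages are present in the KO, so the spermatocyte gate can hold stages in WT that are missing in KO, and genotype and stage composition cannot be told apart there.

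The proteasome degrades proteins that carry ubiquitin chains. Its 20S core is a barrel of alpha and beta rings, with the proteolytic sites on Psmb5, Psmb6 and Psmb7, and the 19S particle at its ends binds, unfolds and feeds in the substrate. Cells can exchange parts: Psmb8, Psmb9 and Psmb10 replace the catalytic subunits in the immunoproteasome, which cuts peptides for antigen presentation, and PA28 (Psme1 and Psme2, or Psme3 in the nucleus) or PA200 (Psme4) can take the place of the 19S particle. Male germ cells have a form of their own, in which PSMA8 stands in for PSMA7 and which often carries PA200. It is known to be needed for meiosis and for the exchange of histones.

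Counts per library came to between 40.6 and 53.3 in units of 1000000, and the proteasome genes held 0.427% to 0.794% of the gene counts. In KO spermatocytes replicates 1 and 4 stood apart from the others, with 0.427% and 0.433% against 0.655% and 0.627%. These same-numbered libraries were more alike than other replicates in both genotypes, so calls were also made with them summed to 1 library. The RNA level of Dnmt3c did not check the labels: its counts were 116, 58 and 67 in KO and 89, 65 and 53 in WT spermatogonia, and 55, 56, 52 and 57 in KO and 28, 11, 19 and 25 in WT spermatocytes. Below, CPM are counts per 1000000 after TMM scaling over all 14 libraries, for comparing libraries, and TPM are values divided by exon length, for comparing genes. Changes were called by edgeR's quasi-likelihood test, with the p-values of all genes and subfamilies of transposable elements (TE) adjusted by Benjamini-Hochberg and a threshold of 0.01.

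The cell types in the libraries were described by marker genes. Summed CPM of 8 pachytene and diplotene markers was 8981 to 16487 in WT spermatocytes and 179 to 321 in KO, and 7 spermatid markers summed to 242 to 1323 and 5.77 to 11.2. The 8 spermatogonia markers ran the other way, at 37.6 to 283 in WT and 448 to 1155 in KO. The sums of early meiotic markers overlapped, at 1343 to 2409 in WT and 1239 to 2313 in KO, but single genes of this list did not all do so. Dmc1 (114 to 128 in KO and 5.11 to 43.8 in WT), Prdm9 and Meiob were higher in each KO than in each WT library. Spo11 was lower in each KO library (20.6 to 40.8 in KO and 122 to 151 in WT), and the others overlapped. Among spermatogonia, WT replicate 2 had a pachytene and diplotene sum of 1504, against 455 and 252 in the other WT libraries and 131 to 147 in KO. The sums of Leydig, endothelial and peritubular markers were also higher in each KO than in each WT spermatocyte library, and those of Sertoli markers overlapped. In bulk libraries fewer cells of a type and less RNA per cell cannot be told apart.

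WT spermatogonia expressed nearly the whole constitutive proteasome. The 14 constitutive 20S genes without Psma8 summed to 3019 ± 67.04 TPM (mean ± SD, n = 3) and the 17 genes of the 19S particle to 3901 ± 142. The highest level among all members there was that of Psmd2, a scaffold subunit of the 19S base, at 777, 779 and 786 TPM. At the other end Psmb11, the subunit of the thymus form, had 5, 2 and 9 counts. The 3 immunoproteasome genes together reached 18.7 ± 1.896 TPM in WT spermatogonia, most of it Psmb10 at 20.03, 16.8 and 16.6. Psmb11 and the pseudogenes Psmb5-ps and Psmb6-ps2 failed the filter on low counts, so 51 of the 54 genes were tested in each comparison.

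The first comparison asked whether loss of DNMT3C alters the proteasome before meiosis. In spermatogonia no member was called, where 0.0741% of all features tested were. The median log2 fold change of the 51 members was 0.12 and that of all genes 0.02. At an unadjusted p under 0.05, 4 members and 7.26% of all features passed. By CPM scaled over all 14 libraries, Psma7, Psmb4, Psmd6, Psmd10 and Psmb7-ps2 were higher in each KO than in each WT library. Psma8, Psme4 and Psmc3ip were lower, while 12.1% of all features had no overlap between the groups. With the spermatogonia libraries scaled alone, as in the fit, Psma7, Psmb4 and Psmd6 overlapped. The highest fold change was that of the pseudogene Psmb7-ps2, from 26, 21 and 33 counts in KO and 12, 8 and 13 in WT (log2 fold change 1.17, SE 0.44, adjusted p = 0.543).

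The lowest fold change in spermatogonia was that of Psma8, the alpha subunit of the germ cell proteasome. Its CPM values were 25.5, 22.8 and 25.5 in KO and 55.6, 146 and 38.7 in WT. All KO libraries were below all WT libraries, and the highest WT value was that of replicate 2, the library with most pachytene marker RNA (log2 fold change -1.75, SE 0.46, adjusted p = 0.22). Without that library the log2 fold change was -0.95 (adjusted p = 0.168), and DESeq2's Wald test with all libraries called this member alone (adjusted p = 0.00498), with 2.49% of all features called. The part of the marker difference in this value was not tested. Psme4 was at 133, 150.4 and 114 CPM in KO and 157, 178 and 179 in WT, again without overlap (log2 fold change -0.41, SE 0.13, adjusted p = 0.409). Psma7 had the opposite order, with 117, 94.6 and 125 in KO and 94.4, 73.98 and 87.9 in WT, where the lowest KO value was barely above the highest of WT (log2 fold change 0.36, SE 0.15, adjusted p = 0.662). With the spermatogonia libraries scaled alone, as in the fit, its groups overlapped.

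The alternative catalytic subunits, PA28, PI31 and the 20S chaperones overlapped between the groups in spermatogonia. Psmb8, Psmb9 and Psmb10 had log2 fold changes of 0.29, 0.63 and 0.34. For Psme1, Psme2 and Psme3 they were 0.23, 0.36 and 0.03. Psmf1, which encodes the inhibitor PI31, had -0.16, and the chaperones Psmg1 to Psmg4 had 0.12, -0.03, 0.12 and 0.16. None of these passed the test, which leaves differences within the spread of 3 libraries unseen. Over the 17 genes of the 19S particle log2 fold changes ran from -0.06 to 0.14.

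In spermatocytes the same comparison gave large differences in both directions. Of the 51 members 30 were called, 10 higher and 20 lower in KO. Among all features 57.4% were called, 27.4% higher and 30.1% lower, and the members' share of 30 in 51 was close to this background. The median log2 fold change was -0.46 over the members and 0.11 over all genes. Scaling by library totals moved the median of all genes to 0.79 and that of the members to 0.28, and the split of calls to 13 higher and 7 lower, with 36.5% and 21.7% of all features. The 13 calls lost under it were those of Psma3, Psmb5, Psmb6, Psmb7, Psmc5, Psmd2, Psmd3, Psmd4, Psmd6, Psmd7, Psmd9, Psmd13 and Psmg2, all lower in KO (adjusted p 0.0122 to 0.942), and the 3 gained were those of Psma1, Psmb2 and Psmc6, all higher. Groups were without overlap in 35 members (11 higher and 24 lower in KO), against 66.4% of all features. The plot of fold changes by role shows both stages on one scale.

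**Figure D1:**
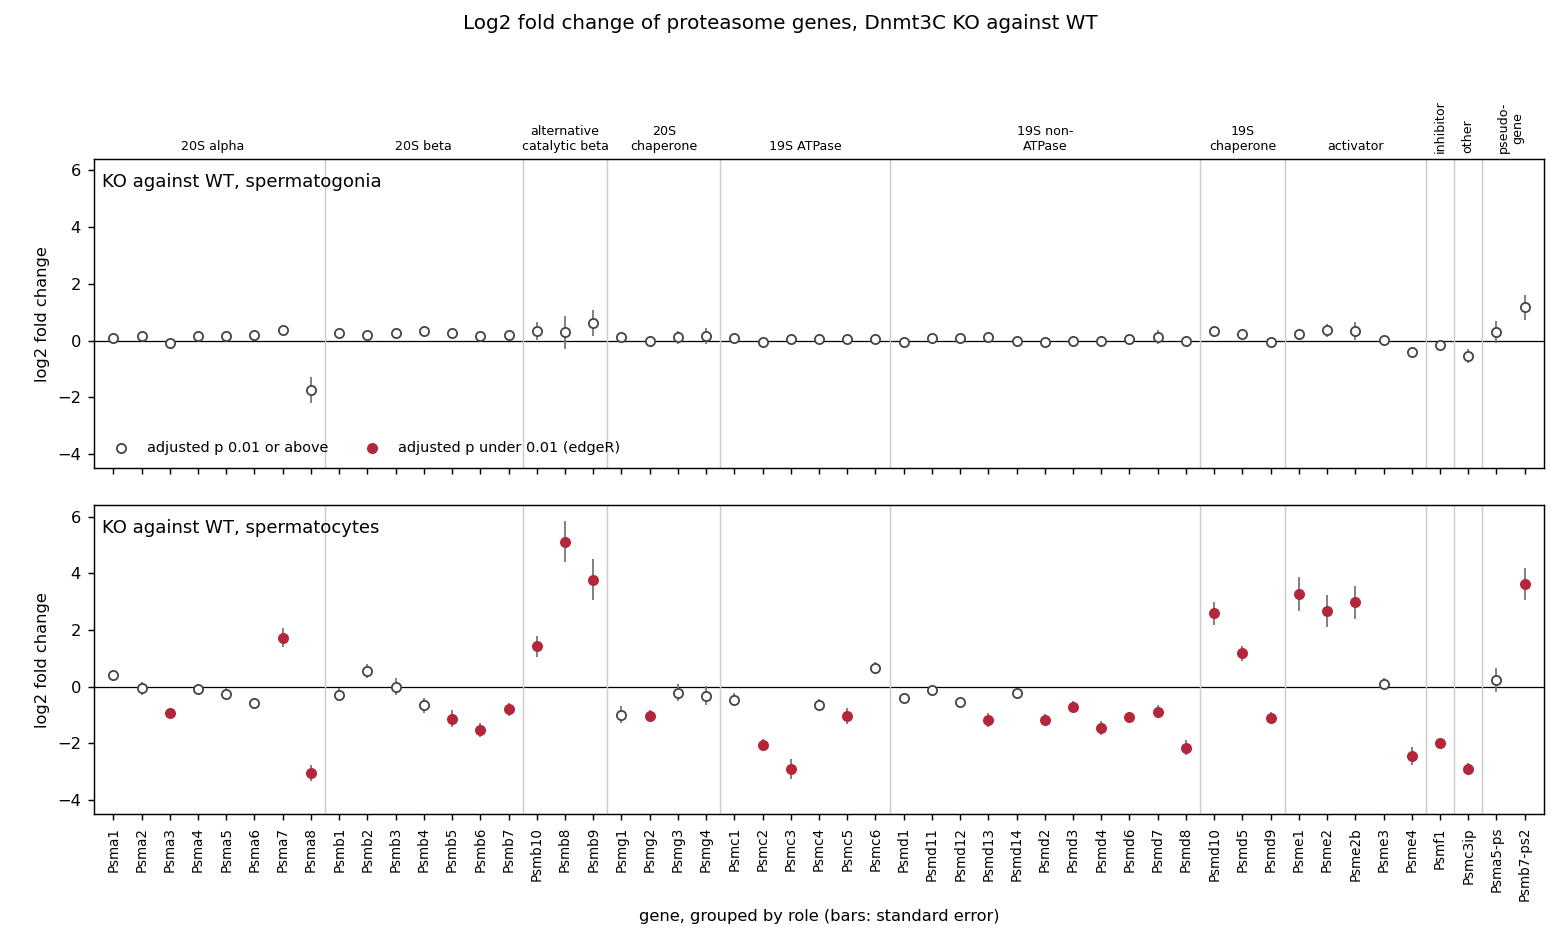
Log2 fold change, KO against WT, of the 51 tested members by role, in spermatogonia (top) and spermatocytes (bottom), with standard errors as bars; filled points passed the edgeR test at an adjusted p under 0.01. In spermatogonia no point is filled and Psma8 lies lowest at -1.75, while in spermatocytes values run from -3.04 (Psma8) to 5.12 (Psmb8).

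Psma8 and Psma7, the alternative subunits for one place in the alpha ring, moved in opposite directions. Psma8, on chromosome 18, had 435, 674, 544 and 424 CPM in the WT spermatocyte libraries and 65.2, 37, 69.5 and 76.2 in KO. Every KO library was far below every WT library (log2 fold change -3.04, SE 0.27, adjusted p = 1.4e-05). Psma7 (GRCm38 chr2:180036374-180042433) had 13.9, 28.3, 30.2 and 12.8 CPM in WT and 59.1, 91.7, 70.6 and 55.4 in KO. Here every KO library was above every WT library, and WT replicates 2 and 3 were above WT replicates 1 and 4 (log2 fold change 1.74, SE 0.32, adjusted p = 0.00095).

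Per exon length, Psma8 made up 97.5, 96.7, 95.7 and 97.6% of the sum of both in WT spermatocytes and 57.6, 33.2, 54.8 and 62.9% in KO. The groups did not overlap (exact permutation test, p = 0.0286, which with 4 libraries a side cannot be lower, and 0.0571 adjusted over 8 such tests). In spermatogonia the share was 42.05, 70.8 and 35.2% in WT and 21.2, 22.9 and 20.1% in KO. There too the groups did not overlap (exact permutation test, p = 0.1, which cannot be lower with 3 libraries a side, adjusted 0.16). The KO spermatocyte shares lay above all KO spermatogonia shares and in the range of the WT spermatogonia, except KO replicate 2, which was below it. The coding sequences of the pair were 74.5% identical over 744 aligned bases and shared no run of 50 bases.

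**Figure D2:**
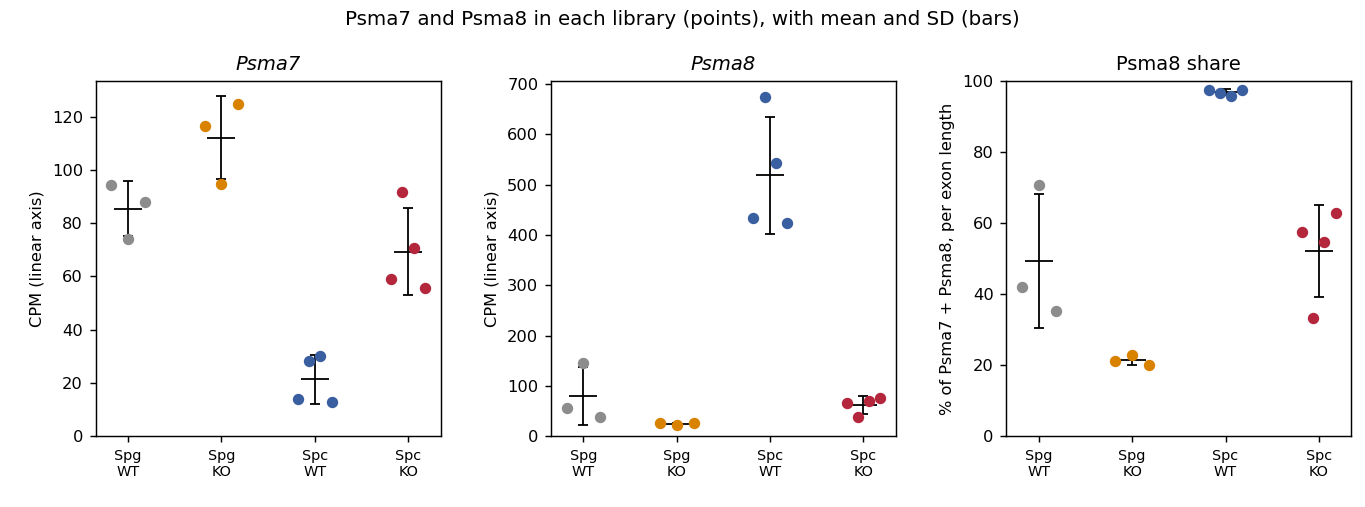
Psma7 (left) and Psma8 (middle) in CPM and the share of Psma8 in the sum of both per exon length (right), in each of the 14 libraries, with mean and SD as bars. Psma8 is highest in the 4 WT spermatocyte libraries (424 to 674 CPM), where its share is 95.7% to 97.6%, against 33.2% to 62.9% in KO.

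The alternative catalytic subunits were higher in KO spermatocytes, all 3 that could be tested. Psmb8 (LMP7, GRCm38 chr17:34197721-34201454), which takes the place of Psmb5, had 2.22, 4.35, 1.07 and 2.34 CPM in KO and 0.0617, 0.0603, 0.144 and 0 in WT, the latter from 2, 2, 6 and 0 counts. The groups lay well apart (log2 fold change 5.12, SE 0.73, adjusted p = 0.000207), and at such low counts the fitted fold depends on the prior count. Psmb9 (LMP2, GRCm38 chr17:34181987-34187764), the counterpart of Psmb6, had 1.29, 2.02, 1.16 and 1.59 CPM in KO and 0, 0.121, 0.263 and 0.0348 in WT (log2 fold change 3.78, SE 0.72, adjusted p = 0.00109). Psmb10 (MECL1), the counterpart of Psmb7, had 9.46, 12.2, 7.78 and 7.94 and 2.56, 5.36, 4.12 and 2.19. Its difference was smaller (log2 fold change 1.42, SE 0.37, adjusted p = 0.00603), and the call was lost in 5 of 8 fits without 1 library (adjusted p 0.0121 to 0.024) and with replicates 1 and 4 summed (adjusted p = 0.041).

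Psmb11, below the filter on low counts, had 28 counts over the KO and 7 over the WT spermatocyte libraries, a ratio of 2.63 (95% counting interval 1.12 to 7.14). Per exon length Psmb8 and Psmb9 stayed under 3% of their pairs in all libraries. On that scale Psmb8 made up 1.51% ± 0.648 of Psmb5 plus Psmb8 in KO spermatocytes (n = 4) and 0.0198% ± 0.0217 in WT. Psmb9 made up 0.964% ± 0.223 of Psmb6 plus Psmb9 in KO and 0.0268% ± 0.0347 in WT. Psmb10 made up 12.7% ± 2.81 of Psmb7 plus Psmb10 in KO and 2.91% ± 0.998 in WT. For each of the 3 shares no KO library overlapped with WT, with an exact permutation p of 0.0286, the smallest possible, and 0.0571 after adjustment. As a share of counts, with no division by length, Psmb8 was at 6.27%, 6.104%, 2.09% and 7.23% in the KO spermatocyte libraries and at most 0.190% in WT. In spermatogonia the mean shares of Psmb8, Psmb9 and Psmb10 were 0.0682%, 0.471% and 8.87% in KO and 0.0659%, 0.357% and 8.18% in WT, with exact permutation p of 1, 0.5 and 0.7.

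PA28, the activator that cells pair with the immunoproteasome, moved the same way. Psme1 (PA28 alpha, GRCm38 chr14:55578123-55581529) had 49.1, 61.9, 44.2 and 44.1 CPM in KO spermatocytes and 1.61, 7.23, 10.7 and 1.77 in WT (log2 fold change 3.27, SE 0.59, adjusted p = 0.000773). Psme2 (PA28 beta) had 35.03, 49.95, 38.2 and 33.7 and 2.38, 8.74, 12.4 and 2.02 (log2 fold change 2.67, SE 0.56, adjusted p = 0.0018). In both genes WT replicates 2 and 3 were above WT replicates 1 and 4, and still below all KO libraries. Psme3 (PA28 gamma), whose product works in the nucleus, overlapped between the groups at 145, 197, 238 and 145 CPM in KO and 147, 214, 189 and 142 in WT (log2 fold change 0.096, SE 0.22, adjusted p = 0.708). Psme2b, an intronless copy of Psme2, rose with it (log2 fold change 2.98, SE 0.58, adjusted p = 0.00124), but its coding sequence is 99.3% identical to that of Psme2 and 541 of its 788 runs of 50 bases also occur in Psme2, so its counts are uncertain.

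Marker genes of blood and vessel cells differed between the same libraries. The summed CPM of 7 macrophage markers, all of them detected in both groups, was 104, 165, 41.7 and 98.7 in KO spermatocyte replicates 1 to 4 and 8.86, 8.53, 20.03 and 6.99 in WT. That of 4 endothelial markers was 146, 77.1, 19.7 and 131 and 5.43, 6.93, 6.76 and 5.46. Most of the endothelial sum in KO was Cdh5, at 135, 39.8, 11.7 and 122. Tek was also higher in each KO than in each WT library, while Pecam1 and Kdr overlapped, with KO replicate 2 highest. KO replicate 2, with the most macrophage RNA, also had the most Psmb8 and Psmb9, and KO replicate 3, with the least, had the least of both. The 4 T and NK cell markers found summed to 2.45 to 5.23 CPM in KO, and to 0.243 to 2.13 in WT, where Cd3g was at 0. In spermatogonia, sorted against beta-2 microglobulin, macrophage markers summed to 6.28 to 10.6 in KO and 5.097 to 8.22 in WT, while Psme1 stood at 45 to 70.7 and 41.3 to 53.5 CPM. The part of these cells in the KO spermatocyte values was not tested.

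PA200 and PI31 fell in KO spermatocytes. Psme4 (PA200, GRCm38 chr11:30771726-30880361), the activator found on germ cell proteasomes, had 963, 599, 499 and 1142 CPM in WT spermatocytes and 159, 114, 137 and 176 in KO. The groups lay far apart (log2 fold change -2.44, SE 0.32, adjusted p = 0.000118). Psmf1 (PI31, GRCm38 chr2:151715812-151744186) had 144, 115, 119 and 141 in WT and 33.7, 30.05, 32.05 and 33.9 in KO, with little spread on either side (log2 fold change -1.98, SE 0.19, adjusted p = 1.8e-05). Both calls held in all 8 fits without 1 library.

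**Figure D3:**
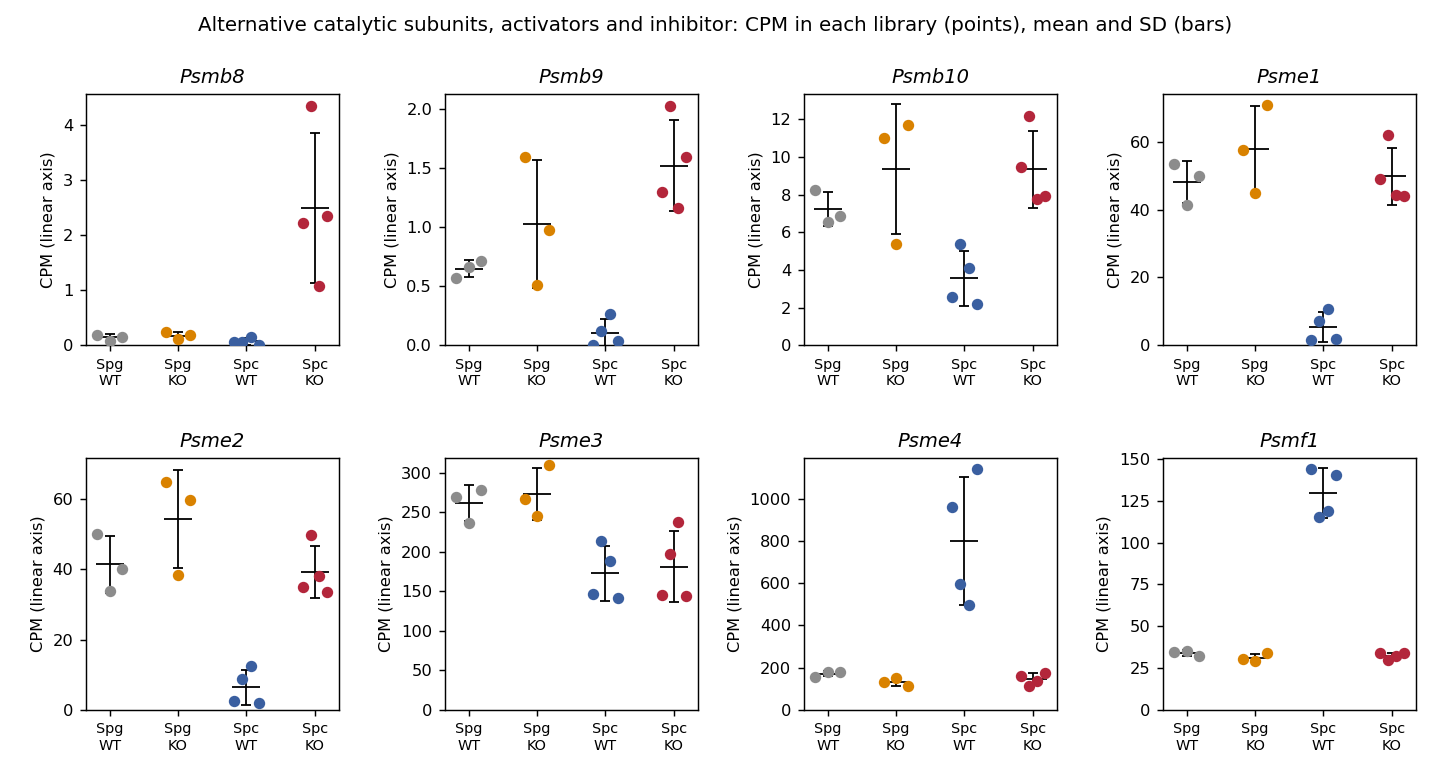
CPM in each library (points, with mean and SD as bars; bars below 0 are not drawn) of the alternative catalytic subunits Psmb8, Psmb9 and Psmb10, the activators Psme1 to Psme4 and the inhibitor Psmf1. WT spermatocytes hold the lowest Psme1 and Psme2 values (1.61 to 12.4 CPM) and the highest Psme4 and Psmf1 values (499 to 1142 and 115 to 144 CPM), while Psme3 overlaps between genotypes.

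The 19S particle was called lower in KO spermatocytes for 10 of its 17 genes and higher for none, where 30.1% of all features were lower. With replicates 1 and 4 summed 4 of the 17 were called lower, where 22.8% of all features were. Its median log2 fold change was -0.87, with 16 of 17 values negative. Under scaling by library totals the median was -0.15, with 8 of 17 values positive and all genes at 0.79. There 1 of the 17 was called higher and 3 lower, where 36.5% of all features were higher and 21.7% lower. The called value of Psmd3 changed from -0.71 to 0.019. The largest falls were in Psmc3 (RPT5), at 1673, 1185, 704 and 1549 CPM in WT and 127, 239.5, 189 and 126 in KO (log2 fold change -2.898, SE 0.35, adjusted p = 7.8e-05), and in Psmd8 (RPN12), at 639, 521, 323 and 596 and 104, 137, 124 and 102 (log2 fold change -2.14, SE 0.25, adjusted p = 7.3e-05). In both genes the WT library nearest to KO was replicate 3. Psmc2 (RPT1) followed with 481, 402, 291 and 452 and 92.4, 104, 101 and 91.9 (log2 fold change -2.05, SE 0.21, adjusted p = 3.2e-05).

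Of the 6 ATPases Psmc2, Psmc3 and Psmc5 were called lower (log2 fold changes -2.05, -2.898 and -1.03). Psmc4 had -0.64 (adjusted p = 0.0205), Psmc1 -0.46 (adjusted p = 0.105) and Psmc6 0.67 (adjusted p = 0.0129), the only positive value of the 19S particle. Differences between the ATPases were not tested. Among the non-ATPase subunits Psmd4 (RPN10), a ubiquitin receptor, had log2 fold change -1.46, SE 0.23, adjusted p = 0.000372, and Psmd2 had log2 fold change -1.17, SE 0.22, adjusted p = 0.00109. Psmd14 (RPN11), the deubiquitinase that clears the substrate, was at 93.1, 106, 95.2 and 90.7 CPM in WT and 71.7, 84.2, 94.3 and 73.04 in KO, overlapping (log2 fold change -0.23, SE 0.17, adjusted p = 0.242). Psmd11, known to promote assembly of the 26S form, had -0.12 (adjusted p = 0.578).

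In the core, among the 14 constitutive alpha and beta genes without Psma8, Psma7 was called higher and Psma3, Psmb5, Psmb6 and Psmb7 lower, the last 3 being the catalytic subunits. Of all features 27.4% were called higher and 30.1% lower. Psmb6 had 267, 274, 175 and 233 CPM in WT and 66.4, 108, 86 and 65.2 in KO (log2 fold change -1.53, SE 0.23, adjusted p = 0.000314). Psmb5 (log2 fold change -1.13, SE 0.29, adjusted p = 0.00563) and Psmb7 (log2 fold change -0.801, SE 0.22, adjusted p = 0.00756) were nearer to the threshold and lost the call without most single libraries. Psma3 had log2 fold change -0.91, SE 0.17, adjusted p = 0.000818. The median of the 14 was -0.27, and 0.44 under library totals, where 3 of them were called higher and none lower. Of all features 36.5% and 21.7% were called so there. The 14 summed to 1872 ± 357 TPM in WT and 2399 ± 629 in KO (n = 4). Within KO, replicates 1 and 4 were lower than replicates 2 and 3 in each of the 14 genes, as in Psmb3 at 44.1, 99.8, 80.7 and 43.5 CPM. Some marker sums split these libraries too: in KO replicates 1 to 4 Leydig markers summed to 322, 54.1, 60.1 and 262 CPM, Sertoli markers to 1013, 369, 274 and 939.8 and spermatogonia markers to 457, 1155, 1137 and 448. Their part in these values was not tested.

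Assembly chaperones went both ways. Psmd10 (gankyrin), a 19S chaperone on chromosome X, had 26.2, 21.6, 26.3 and 28.6 CPM in KO spermatocytes and 4.45, 2.2, 7.402 and 3.305 in WT (log2 fold change 2.59, SE 0.39, adjusted p = 0.000296). Psmd5 was also higher in KO (log2 fold change 1.18, SE 0.27, adjusted p = 0.00288) and Psmd9 lower (log2 fold change -1.096, SE 0.201, adjusted p = 0.000869). Of the 20S chaperones Psmg2, the partner of Psmg1, was called lower (log2 fold change -1.04, SE 0.205, adjusted p = 0.00131), a call lost with replicates 1 and 4 summed (adjusted p = 0.0123) and under scaling by library totals (-0.35, adjusted p = 0.276). Psmg1 had log2 fold change -0.98, SE 0.28, adjusted p = 0.0108, just short of the threshold, and was called by DESeq2 and with the replicate block (adjusted p = 0.00563). Psmg3 and Psmg4 had -0.21 and -0.31 (adjusted p = 0.531 and 0.427). The pseudogene Psmb7-ps2, also on chromosome X, held 23, 28, 25 and 21 counts in KO and 1, 1, 3 and 0 in WT, a ratio of 12.8 (95% counting interval 5.29 to 40.2).

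Psmc3ip, the recombination factor taken in by its name, had 280.0, 306, 190.3 and 257 CPM in WT spermatocytes and 30.7, 35.9, 39.3 and 30.7 in KO (log2 fold change -2.901, SE 0.21, adjusted p = 5.4e-06). It was called in all 8 fits without 1 library. In spermatogonia it had 27.8, 27.1 and 28.9 in KO and 31.8, 54.8 and 31.7 in WT, without overlap and with WT replicate 2 again highest (log2 fold change -0.54, SE 0.25, adjusted p = 0.741).

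Of the 30 calls in spermatocytes 23 stood in every fit without 1 library, and the other 7 were those of Psmb5, Psmb7, Psmb10, Psmc5, Psmd3, Psmd5 and Psmd7. With replicates 1 and 4 summed, 17 members were called, 8 higher and 9 lower, where 38.2% of all features were called, 15.4% higher and 22.8% lower. The 13 calls lost there were those of Psmb10, Psmd5, Psma3, Psmb5, Psmb7, Psmc5, Psmd2, Psmd3, Psmd6, Psmd7, Psmd9, Psmd13 and Psmg2 (adjusted p 0.0107 to 0.0741).

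Whether the KO effect differs between the stages was tested over all 14 libraries. The difference was called for 18 members, 3 positive and 15 negative, where 24.9% of all features were called, 10.7% positive and 14.3% negative. The median was -0.61 over the members and 0.20 over all genes. With library totals, where all genes had a median of 0.90, 8 were positive and 6 negative, with 16.9% and 6.88% of all features. Without KO spermatogonia replicate 2, or without WT spermatogonia replicate 1, 11 members were called, with 15.8% and 15.3% of all features. The positive ones were Psmb8 (log2 difference 4.77, SE 0.96, adjusted p = 0.00188), Psme1 (log2 difference 2.96, SE 0.73, adjusted p = 0.00578) and Psmd10 (log2 difference 2.21, SE 0.47, adjusted p = 0.00277). With replicates 1 and 4 summed 11 members and 14.3% of all features were called, and Psmd10 (adjusted p = 0.0114), Psma3, Psmb5, Psmd2, Psmd9, Psmd13 and Psmg2 were not. The most negative were Psmc3 (log2 difference -2.997, SE 0.41, adjusted p = 0.000235), Psmc3ip (log2 difference -2.42, SE 0.32, adjusted p = 0.000204) and Psmd8 (log2 difference -2.19, SE 0.31, adjusted p = 0.000261).

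For Psma8 the effects in the 2 stages were not told apart at the threshold (log2 difference -1.37, SE 0.52, adjusted p = 0.0472). Without WT spermatogonia replicate 2 the log2 difference was -2.06 (adjusted p = 0.00135). Psme4 did pass (log2 difference -2.08, SE 0.37, adjusted p = 0.000903), as did Psmf1 (log2 difference -1.87, SE 0.23, adjusted p = 0.000154) and Psmg2 (log2 difference -1.07, SE 0.29, adjusted p = 0.00915), the last in only 2 of 14 fits without 1 library and not under library totals (-0.34, adjusted p = 0.455). Psma7, Psmb9, Psmb10, Psme2 and Psmg1 had log2 differences of 1.31, 3.08, 1.02, 2.23 and -1.16 (adjusted p = 0.0229, 0.0152, 0.125, 0.0209 and 0.0249). With the replicate block 18 members and 23.9% of all features were called for the difference, now with Psma7 (adjusted p = 0.00553), Psme2 (0.00773), Psmg1 (0.00799) and Psme2b (0.00942), and no longer with Psma3, Psmd2, Psmd9 and Psmg2 (adjusted p 0.0109 to 0.0151). DESeq2 called Psma7, Psmb9, Psme2 and Psmg1 (adjusted p 0.000415 to 0.00699), and library totals Psma7 (1.99, adjusted p = 0.00931) and Psmb9 (3.704, adjusted p = 0.00962). The data did not establish that the numbers pair the libraries in either stage, though replicate 1 of spermatogonia stood out. Psme3, Psmg3 and Psmg4 had 0.003, -0.397 and -0.53.

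The same libraries show what the proteasome genes do between the sorted stages, in each genotype on its own. These comparisons use the libraries of the tests above again and are no separate evidence. In WT, 27 of 51 members differed between spermatocytes and spermatogonia, 17 higher and 10 lower, against 51.4% of all features, 28.9% higher and 22.5% lower. The median was 0.38, with all genes at 0.02. With library totals 7 were higher and 18 lower, with 18.3% and 34.8% of all features, and the median of all genes was -0.76. Groups did not overlap for 38 members, against 65.2% of all features.

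Psma8, Psmc3, Psme4, Psmd8, Psmc2 and Psmf1 were higher in WT spermatocytes, by 2.698, 2.37, 2.23, 1.98, 1.95 and 1.93 on the log2 scale. So was Psmc3ip (2.71). Psme1, Psme2, Psmb9, Psma7, Psmd10 and Psmd5 were lower, with -3.17, -2.697, -2.51, -2.004, -1.95 and -1.67. The adjusted p of these 13 genes was at most 0.00518, and the call of Psmb9 was lost with replicates 1 and 4 summed (0.0143), without WT spermatocyte replicate 2 (0.0121) and without WT spermatocyte replicate 4 (0.0164). Psmb8 and Psmb10 did not pass (-0.95 and -1.02, adjusted p = 0.266 and 0.025), but Psmb10 was called lower by DESeq2 (adjusted p = 0.00495), under library totals (-1.79, adjusted p = 0.00183) and in 2 of 14 fits without 1 library. Psme3 did not pass either (-0.596, adjusted p = 0.0218), but was called lower by DESeq2 (adjusted p = 0.00902), under library totals (-1.39, adjusted p = 0.000448), without the filter on low counts (-0.74, adjusted p = 0.00644) and in 8 of 14 fits without 1 library. Of the 20S chaperones Psmg2 passed (0.82, adjusted p = 0.00317), but not with library totals (0.018, adjusted p = 0.957), without the filter on low counts (adjusted p = 0.0138) or in 7 of 14 fits without 1 library (adjusted p 0.0103 to 0.0365). Psmg1, Psmg3 and Psmg4 had 0.497, 0.53 and 0.26, and their directions turned with library totals, while DESeq2 called Psmg3 higher (adjusted p = 0.00377). Psme2b was lower, with -2.72 (adjusted p = 0.000489), and Psmb7-ps2 had 5 counts in spermatocytes and 33 in spermatogonia, a ratio of 0.182 (95% counting interval 0.0553 to 0.468).

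In the KO only 1 of 51 members was called between the stages, against 2.99% of all features. It was Psmb8 (log2 difference 3.82, SE 0.66, adjusted p = 0.00298), whose call was lost without any single KO spermatogonia library (adjusted p 0.0168 to 0.0293). Without WT spermatogonia replicate 2, 2 members and 2.99% of all features were called. At an unadjusted p under 0.05, 19 members and 24.5% of all features passed. Groups did not overlap for 11 members, against 26.2% of all features. The median was -0.34 over the members and 0.02 over all genes, and all 17 genes of the 19S particle had negative values, from -0.63 to -0.03. Psma8 was higher in each KO spermatocyte library than in each KO spermatogonia library (log2 difference 1.33, SE 0.38, adjusted p = 0.0458). Psma7 had -0.69, Psme4 0.15, Psmf1 0.06 and Psmg1 -0.66, none of them called. For Psmb9, Psmb10, Psme1, Psme2 and Psme3 the values were 0.56, -0.0032, -0.21, -0.47 and -0.59, and for Psmg2, Psmg3 and Psmg4 -0.25, 0.13 and -0.27.

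**Figure D4:**
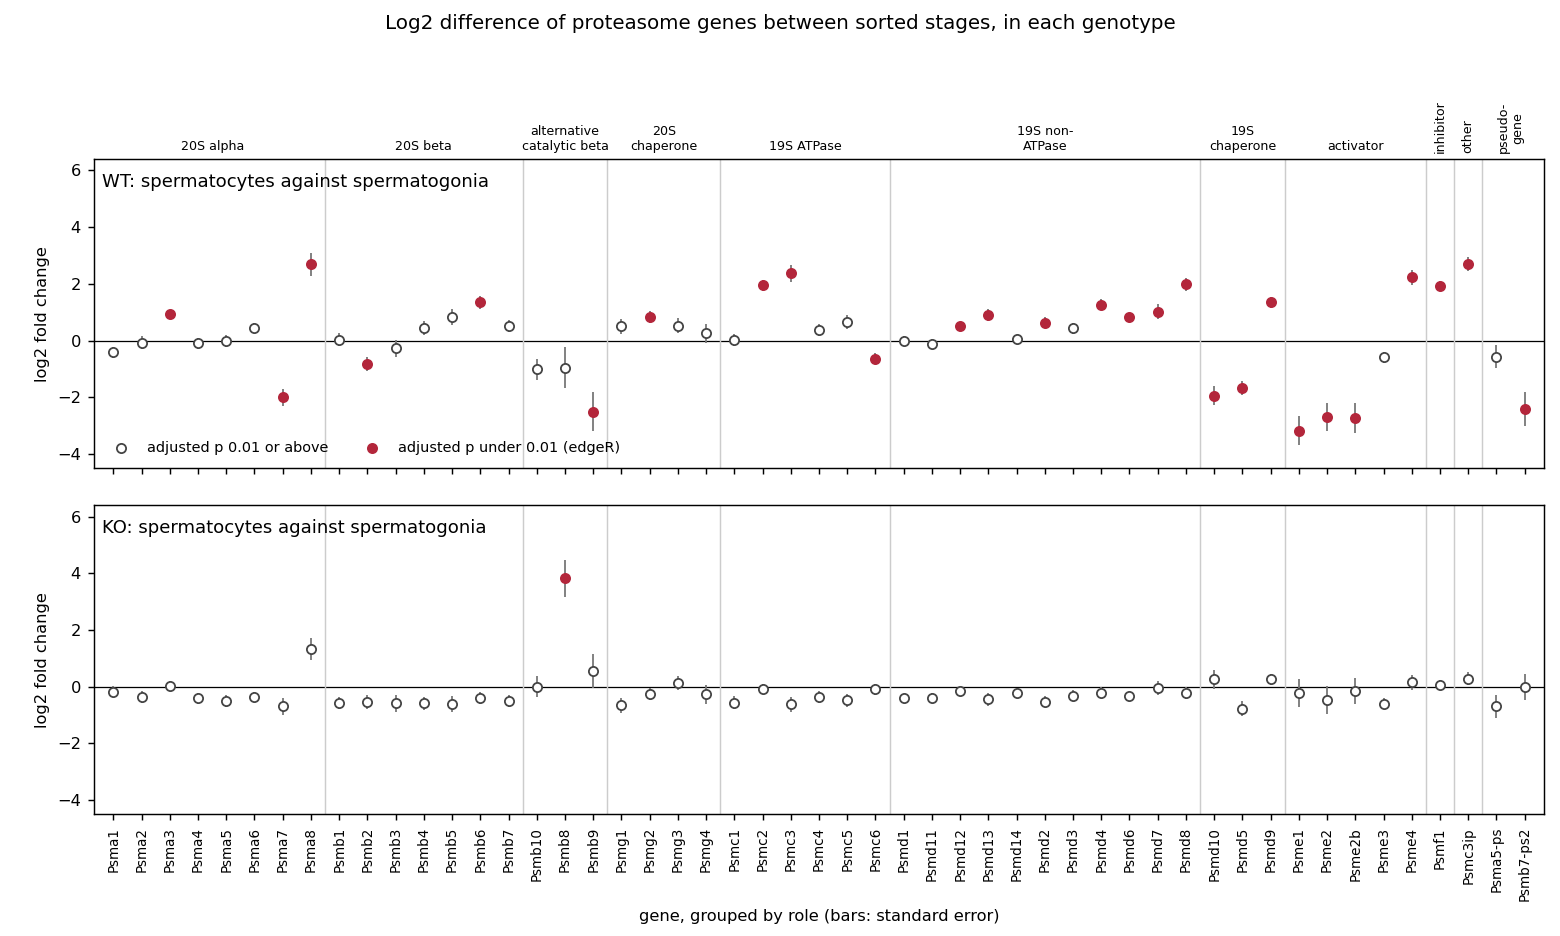
Log2 difference of spermatocytes against spermatogonia for the 51 tested members by role, in WT (top) and KO (bottom), with standard errors as bars; filled points passed the edgeR test at an adjusted p under 0.01. In WT 27 points are filled, from -3.17 (Psme1) to 2.71 (Psmc3ip), and in KO only Psmb8 at 3.82.

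Genes that work with the proteasome were taken from lists of 37 names, of which 35 were found and tested. In spermatogonia none of them was called. In spermatocytes 5 of 9 genes of antigen presentation were called higher in KO and none lower, where 27.4% of all features were higher and 30.1% lower. B2m, the light chain of class I molecules, rose from 9.21 ± 3.06 to 68.8 ± 36.3 CPM (log2 fold change 2.93, SE 0.48, adjusted p = 0.000421), and the peptide transporter genes Tap1 and Tap2 rose with 4.27 and 5.61 (adjusted p = 0.000452 and 0.000167). Irf1, a transcription factor that acts on Psmb8 and Psmb9, rose from 2.19 ± 2.06 to 41.7 ± 17.4 CPM (log2 fold change 4.29, SE 0.77, adjusted p = 0.000737). In KO and WT spermatogonia Irf1 averaged 27.1 and 22 CPM and B2m 9.69 and 10.3. The heavy chain gene H2-D1 was called higher (log2 fold change 2.29, SE 0.61, adjusted p = 0.00677), with overlap between the groups and in only 2 of 8 fits without 1 library, and not with the replicate block (adjusted p = 0.0183) or with replicates 1 and 4 summed (adjusted p = 0.0334). H2-K1 had -0.03 (adjusted p = 0.892). Tapbp, which holds class I molecules at the peptide transporter, went the other way, with every KO library below every WT library but no call (log2 fold change -1.23, SE 0.38, adjusted p = 0.0141). These are genes of macrophages and endothelium too, and the part of these cells in the values was not tested. The marker sums of both were higher in the same libraries, that of endothelium mostly through Cdh5.

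Nfe2l1 (NRF1 of the CNC family, not the nuclear respiratory factor of the same short name), which drives proteasome genes when proteasomes fail, was higher in KO spermatocytes (log2 fold change 1.39, SE 0.22, adjusted p = 0.000357), and so was its relative Nfe2l2 (log2 fold change 3.33, SE 0.51, adjusted p = 0.000315). Ngly1, which helps to activate it, was called lower (log2 fold change -1.09, SE 0.29, adjusted p = 0.00677), but in only 3 of 8 fits without 1 library, and not with library totals (-0.37, adjusted p = 0.174) or with replicates 1 and 4 summed (adjusted p = 0.0334). Ddi2, its protease, had 0.097. Of 9 cofactors 2 were higher and 2 lower, beside the shares of all features just given: Usp14 (0.97) and Zfand5 (0.79) rose, and Uchl5 (-1.34) and Akirin2 (-1.77), which brings proteasomes into the nucleus, fell. Under library totals Uchl5 was at -0.61 and not called (adjusted p = 0.0178). Among shuttle and extraction factors Ubqln2 rose (2.68), and Nploc4 (-1.44) and Ubqln4 (-0.77) fell. The calls of Zfand5 and Ubqln4 held in 5 of 8 fits without 1 library, and with library totals Ubqln4 was at -0.073 (adjusted p = 0.761). With replicates 1 and 4 summed Usp14, Zfand5, Nploc4 and Ubqln4 were not called (adjusted p 0.0101 to 0.0371). Among ubiquitin genes Uba1, the main E1 enzyme, rose (2.48), and Ubb fell from 3808 ± 924 to 737 ± 70.6 CPM (log2 fold change -2.35, SE 0.25, adjusted p = 4.0e-05). In KO spermatocytes Nfe2l1, Nfe2l2 and Uba1 averaged 288, 70.7 and 263 CPM, against 112, 7.2 and 48 in WT. In spermatogonia they averaged 282, 67.4 and 406 in KO and 265, 60.6 and 376 in WT. For each of them WT spermatocytes were thus the lowest group, and KO spermatocytes were near or below spermatogonia.

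Promoters were read for short motifs of regulators known for these genes. RefSeq promoters (GRCm38.p6, 250 bases before to 50 after the start site) were matched for 42 of the 54 members, as 45 promoters. The core of the antioxidant response element, TGACNNNGC on either strand, which CNC factors bind, was in 6 of 45 (13.3%) and in 12.4% of all promoters of that length. The half-site of nuclear respiratory factor 1, TGCGCA, was in 6 of 45 (13.3%) and in 7.76% of all. The MYB core, AACTG, was in 18 of 45 (40%) and in 44.8% of all. Of motifs linked to interferon, chosen after values were seen, the core of the interferon-stimulated response element (GAAA, any 2 bases, GAAA) was in 5 of 45 (11.1%, and 3.44% of all). The palindrome TTCNNNGAA was in 3 (6.67%, and 8.3% of all). Both strands were read for each motif.

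The sequences below are examples, of members whose changes are described above and which hold such a site, from 150 bases before to 25 after the start site, with the site in capitals. No site of these overlapped with one of another motif. The antioxidant response core was in 6 members. Shown are the catalytic subunits Psmb5 (chr14:54617971-54618145, minus strand) and Psmb6 (chr11:70525207-70525381, plus strand) and the activator Psme4 (chr11:30771625-30771799, plus strand), all called lower in KO spermatocytes, with sites at -47, -9 and -7 from the start site. The others were Psmd9 (-31), also called lower, and with sites outside this window Psmc6 (-227), the positive value of the 19S particle, and Psmd12 (-247), at -0.52 (adjusted p = 0.0149).
Psmb5: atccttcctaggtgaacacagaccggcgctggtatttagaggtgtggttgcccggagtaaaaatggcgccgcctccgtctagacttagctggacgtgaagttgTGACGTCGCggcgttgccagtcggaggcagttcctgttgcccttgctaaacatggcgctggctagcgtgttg
Psmb6: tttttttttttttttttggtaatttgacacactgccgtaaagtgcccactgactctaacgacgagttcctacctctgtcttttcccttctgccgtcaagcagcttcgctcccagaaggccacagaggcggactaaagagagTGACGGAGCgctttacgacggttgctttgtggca
Psme4: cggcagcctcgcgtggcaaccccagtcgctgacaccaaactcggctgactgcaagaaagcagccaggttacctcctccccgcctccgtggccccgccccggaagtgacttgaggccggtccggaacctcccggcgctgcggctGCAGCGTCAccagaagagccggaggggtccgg

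An interferon-linked site was in 8 members, which went both ways in KO spermatocytes. TTCNNNGAA sites were in Psmb8 (chr17:34198045-34198219, plus strand) at -97, in Psmd2 (chr16:20651502-20651676, plus strand) at 5 and in Psmg1 at -243. Interferon-stimulated response cores were in Psme1 (chr14:55578344-55578518, plus strand) at 10, in Psmd4 (chr3:95042590-95042764, minus strand) at -80, in Psmd9 at -159, in Psmb3 at -163 and in Psmg4 at 16. Of these Psmb8 and Psme1 were called higher, Psmd2, Psmd4 and Psmd9 lower, and Psmg1, Psmb3 and Psmg4 were not called. The RefSeq start sites of Psmb8 and Psme1 lie 474 and 371 bases inside the genes as placed above, so these windows are downstream of the gene starts of that annotation, and for the other promoters shown the starts differ by at most 49 bases. The promoters of Psmb9 and Psme2 held neither motif. Shown are both called higher and the pair called lower whose site lies within this window.
Psmb8: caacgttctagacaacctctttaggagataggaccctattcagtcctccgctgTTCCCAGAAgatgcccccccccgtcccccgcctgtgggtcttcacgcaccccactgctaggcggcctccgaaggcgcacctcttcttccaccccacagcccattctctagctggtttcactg
Psme1: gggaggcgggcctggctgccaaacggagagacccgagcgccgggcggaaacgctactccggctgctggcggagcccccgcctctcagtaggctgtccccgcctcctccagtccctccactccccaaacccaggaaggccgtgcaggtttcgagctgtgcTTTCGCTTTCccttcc
Psmd2: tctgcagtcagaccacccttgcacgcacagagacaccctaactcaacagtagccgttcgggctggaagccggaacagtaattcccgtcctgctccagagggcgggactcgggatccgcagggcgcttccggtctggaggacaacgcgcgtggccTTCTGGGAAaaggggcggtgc
Psmd4: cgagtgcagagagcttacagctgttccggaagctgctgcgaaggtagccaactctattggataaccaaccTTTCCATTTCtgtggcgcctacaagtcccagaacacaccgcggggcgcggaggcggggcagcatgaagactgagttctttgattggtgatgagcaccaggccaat

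Psma2 (chr13:14613092-14613266, plus strand) held 4 copies of the nuclear respiratory factor half-site, the most of any member, and is shown for that reason. Its level overlapped between KO and WT in both stages, with log2 fold changes of 0.17 in spermatogonia and -0.06 in spermatocytes.
Psma2: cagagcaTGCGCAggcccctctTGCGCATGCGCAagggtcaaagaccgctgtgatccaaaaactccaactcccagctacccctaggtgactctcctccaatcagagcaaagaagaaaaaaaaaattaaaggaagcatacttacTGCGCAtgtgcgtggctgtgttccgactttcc

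Since DNMT3C acts on TE, single TE copies inside the members or within 5000 bases of them were examined in the deposited TPM tables, which are scaled over TE copies alone. There were 3186 copies at the 54 genes, of which 1297 had a value above 0 in a spermatogonia library and 1382 in a spermatocyte library. In spermatocytes every KO library was above every WT library for 87 of the 1382 copies, against 6.03% of all copies with a value, and below for 34, against 2.39%. In spermatogonia the numbers were 30 and 28 of 1297, against 3.91% and 1.57%.

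Some of these copies followed their gene. Of 57 copies on the strand of Psma8 with a value in spermatocytes, 13 were lower in every KO library and 1 higher, and at Psmf1 7 of 25 were lower and 2 higher. A B2_Mm2 copy just before the start of Psmd8 and on its strand (GRCm38 chr7:29180935-29181128) had TPM values of 159, 169, 133 and 157 in WT spermatocytes and 28.4, 10.4, 12.1 and 20.97 in KO, the same direction as Psmd8. A copy on the strand of a gene shares its reads with the transcript where they overlap or run on. Of 561 copies on the strand opposite to their gene with a value in spermatocytes, 27 were higher in every KO library and 9 lower. Of all copies with a value 6.03% and 2.39% were. Among the 27, a B1_Mus2 copy next to the start of Psma3 (GRCm38 chr12:70974187-70974333) had 112, 252, 238 and 162 TPM in KO and 8.41, 61.6, 55.1 and 4.90 in WT, while Psma3 itself was lower in KO.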

How the data were processed

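Per the study's methods the authors trimmed the reads with cutadapt (v4.0), aligned them to GRCm38 with STAR (v2.7.3a), keeping up to 100 alignments per read, and counted genes and TE subfamilies with TEtranscripts in its multi-mapping mode. The deposited count tables hold these counts as whole numbers. The deposited TE copy tables hold TPM per single TE copy, made by the authors with TElocal. The library kit was stranded and poly(A) selected. Columns with the authors' DESeq2 (v1.44.0) fold changes and p-values were not used. The authors left out 1 spermatogonia replicate of each genotype, which was not analysed here; columns numbered 4 there belong to the samples labelled replicate 3.

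Counts were tested with edgeR (v4.0.16, R v4.3.3) by its quasi-likelihood test after filterByExpr and TMM scaling over genes and TE subfamilies, with Benjamini-Hochberg adjustment over all features. Each stage was fitted alone for KO against WT, and all 14 libraries together for the other comparisons. TPM of genes were computed from the counts and the union of exons, and gene positions read, in a GENCODE annotation of GRCm38 that is older than the one the authors used. Shares were compared with two-sided exact permutation tests, adjusted over 8. The script was tested on simulated data. The rule for named genes allowed any member. It asked for values of Psma7, Psma8, the alternative catalytic subunits, Psme1 to Psme4, Psmf1 and Psmg1 to Psmg4 in each comparison, and of up to 3 other called members at each end of the fold changes. Some genes of the pathway lists are not reported here. The members, lists and rules were chosen with earlier results of these data known. The study calls its replicates biological and speaks of 3 per genotype, without saying whether each is 1 animal, while the labels give 4 spermatocyte libraries per genotype. P-values then measure the spread between these samples. Same-numbered spermatogonia libraries had correlated deviations (r = 0.52, 0.17 and 0.18), but KO replicate 2 with WT replicate 3 had r = 0.263. By the data alone only replicate 1 stood out, so pairing by number was not established. Ratio intervals cover counting error only. Alternatives were DESeq2 (v1.42.0), other scalings and filters, a replicate block, spermatocyte replicates 1 and 4 summed, and each library left out. Figures used matplotlib (v3.10.9).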

Additional observations from a re-analysis of the deposited data

Results flagged for a closer look

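The effect of the KO differed between spermatocytes and spermatogonia, by the test of the difference itself (edgeR's quasi-likelihood test over 14 libraries, adjusted p under 0.01), for 18 members, where 24.9% of all features passed. With spermatocyte replicates 1 and 4 summed it was called for 11, and not for Psmd10 (adjusted p = 0.0114), Psma3, Psmb5, Psmd2, Psmd9, Psmd13 and Psmg2. The log2 difference was positive for Psmb8 (4.77), Psme1 (2.96) and Psmd10 (2.21). It was negative for Psma3 (-0.88), Psmb5 (-1.44) and Psmb6 (-1.75) of the core, and for Psme4 (-2.08), Psmf1 (-1.87), Psmg2 (-1.07) and Psmd9 (-1.09). In the 19S particle it was negative for Psmc2 (-2.05), Psmc3 (-2.997), Psmd2 (-1.16), Psmd4 (-1.48), Psmd6 (-1.16), Psmd8 (-2.19) and Psmd13 (-1.35). The recombination factor gene Psmc3ip had -2.42. Calls of Psma3, Psmb5, Psmd2, Psmd9, Psmd13, Psme1 and Psmg2 were lost without at least 1 of the 14 libraries. Under library totals 9 calls were lost, those of Psma3, Psmb5, Psmb6, Psmd2, Psmd4, Psmd6, Psmd9, Psmd13 and Psmg2 (-0.97 to -0.14, adjusted p 0.0295 to 0.682).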

How the results depend on the processing

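In spermatogonia no alternative called a member except DESeq2's Wald test, which called 1 (Psma8). In spermatocytes counts of called members lay between 20 and 36 under the other alternatives and between 23 and 32 without 1 library. With replicates 1 and 4 summed there were 17. That setting both leaves fewer libraries and merges the most alike ones, and the cause of the drop was not tested. Replicates 1 and 4 differed by a median of 5.82 times the sampling noise in KO and 3.99 in WT, against 27.97 to 94.8 for other spermatocyte pairs. For the difference between stages the count was 11 with these summed, 33 at an adjusted p under 0.05, and 11 to 27 without 1 library. Between the stages in KO it was 0 with a mean count of at least 50, where Psmb8 was not tested, 2 at an adjusted p under 0.05, and 0 to 2 without 1 library. In WT it was 19 to 33, and 21 to 29 without 1 library.

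Under library totals the sign changed for 2 of the 51 members in spermatogonia, 15 in spermatocytes, 15 for the stage difference, 15 in the WT stage comparison and 3 in that of KO. The called ones among them were Psmd3 in spermatocytes (0.019) and Psmd2, Psmd6 and Psmd12 in the WT stage comparison (-0.204, -0.014 and -0.304), none called under library totals. The members named by the rule among them were Psmg3 and Psmg4 in spermatocytes (0.45 and 0.39) and between stages (0.31 and 0.21), Psmg1, Psmg3 and Psmg4 in the WT stage comparison (-0.31, -0.26 and -0.53), and Psmf1 in that of KO (-0.031). Library totals moved called values by over 1.5 times for 17 of 30 members in spermatocytes, 13 of 18 for the stage difference and 17 of 27 in the WT stage comparison, of which 4, 4 and 7 kept their call. Those that kept it were Psmf1, Psmd8, Psmc2 and Psmd5 in spermatocytes (-1.27, -1.38, -1.302 and 1.89), Psme4, Psmf1, Psmd8 and Psmc2 for the stage difference (-1.31, -1.14, -1.404 and -1.28) and Psme4, Psmf1, Psmd8, Psmc3, Psmc2, Psmc6 and Psmb2 in the WT stage comparison (1.35, 1.104, 1.12, 1.496, 1.1001, -1.41 and -1.61). Under the other alternatives no called member changed sign, and those named by the rule that did are given next. For the stage difference Psme3 was -0.024 with DESeq2, -0.024 with its size factors, -0.022 with replicates 1 and 4 summed and -0.0054 with the replicate block. In the KO stage comparison Psmb10 was 0.011 with TMM on genes alone and 0.037 with the replicates summed. Without 1 library, in spermatogonia, Psme3 ran from -0.064 to 0.11, Psmg1 from -0.043 to 0.22, Psmg2 from -0.11 to 0.11 and Psmg4 from -0.053 to 0.34. Likewise Psme3 ran from -0.066 to 0.20 in spermatocytes and from -0.094 to 0.19 for the stage difference, and in the KO stage comparison Psme4 ran from -0.0092 to 0.21, Psmb10 from -0.35 to 0.14 and Psmf1 from -0.047 to 0.077. The KO minus WT share of Psmb8 in spermatogonia ran from -0.0132 to 0.0145 percentage points and that of Psmb10 from -0.415 to 2.04. The cause was not tested.

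With the replicate block 0 members were called in spermatogonia, 28 in spermatocytes (10 higher, 18 lower, where 50.9% of all features were called) and 18 for the stage difference (6 positive, 12 negative). In spermatocytes 3 calls were lost (Psmb7, Psmc5 and Psmd3) and 1 gained (Psmg1), and for the stage difference 4 were lost and 4 gained. In spermatocytes same-numbered libraries had r = 0.0773, 0.208, -0.00511 and 0.120, so pairing by number was not established there either. No paired analysis was possible between the stages because they come from different mice. Low counts limit Psmb8, Psmb9, Psmb11 and the pseudogenes.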
